A study of Mus musculus with 6 samples.

Results

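The 10 genes described here encode receptor chains for the alarmin and inflammatory cytokines interleukin-33 (IL-33), IL-25, thymic stromal lymphopoietin (TSLP), IL-18 and IL-1. They were Il1rl1, Il1rap, Il1r1, Il1r2, Il18r1, Il18rap, Il17rb, Il17ra, Crlf2 and Il7r. They were chosen by symbol from the 52636 genes of the count table, and all 10 were found and had enough counts to be tested. By the labels, the RNA came from lung innate lymphoid cells (ILCs) of mice, sorted as lineage-negative and CD90-positive. The KLRG1-positive cells, which the labels also call ILC2 and which the sort protocol calls KLRG1-high, gave 3 libraries, and the KLRG1-negative cells gave 3. KLRG1 is an inhibitory lectin-like receptor carried by activated group 2 ILCs (ILC2) and by some NK and T cells. Mice of both groups were C57BL/6 animals, wild type apart from the green fluorescent IL-4 reporter named 4get, and the sources used here do not give their age. All had been injected intraperitoneally with 500 ng of recombinant IL-33 over 4 days before killing on day 5, so every library comes from cells exposed to the ligand of Il1rl1 and no untreated cells were analysed here. The labels state a sort purity above 90% and do not say whether the 3 libraries of a group came from separate mice. The p-values therefore measure only the spread between these libraries, which may be technical.

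Alarmins are cytokines released or secreted by barrier and stromal cells on damage, and ILC2 in the lung respond to them by making type 2 cytokines. IL-33 binds the chain encoded by Il1rl1, also called ST2, which then recruits the shared co-receptor encoded by Il1rap. The same co-receptor serves the IL-1 receptor, while the product of Il1r2 binds IL-1 without signalling and acts as a decoy. IL-18 uses the pair Il18r1 and Il18rap, IL-25 the pair Il17rb and Il17ra, and TSLP the pair Crlf2 and Il7r, of which Il7r also serves the IL-7 receptor.

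Library totals lay between 17323004 and 23946073 assigned counts. Summed over 10 ILC2 marker genes, the KLRG1-positive libraries held 4754 to 5756 CPM (read counts scaled to library size with TMM factors) and the KLRG1-negative libraries 726 to 2764 CPM. KLRG1-negative library 1 was the lowest at 726 CPM and stood apart in several receptors below. Summed over each list, markers of T cells, B cells, fibroblasts and ILC3 were more abundant in every KLRG1-negative library than in any KLRG1-positive one. The 7 T cell markers summed to 307 to 364 CPM in KLRG1-positive libraries and 1009 to 4002 CPM in KLRG1-negative libraries. Of these, Cd3g was the largest part in every KLRG1-positive library and overlapped between the groups. It stood at 148, 313 and 249 CPM in KLRG1-positive and at 740, 368 and 261 CPM in KLRG1-negative libraries. The 6 B cell markers summed to 121 to 350 and 526 to 4192 CPM in the same order of groups. The 6 fibroblast markers summed to 4.66 to 26.8 CPM in KLRG1-positive libraries and 3849 to 10773 CPM in KLRG1-negative libraries. The 4 ILC3 markers summed to 13.5 to 23.8 CPM in KLRG1-positive libraries and 31.7 to 90.6 CPM in KLRG1-negative libraries. Cd4 of the T cell list and Il17a and Il22 of the ILC3 list also overlapped between the groups. The sums of the 6 NK and ILC1 markers (28.1 to 178 CPM in KLRG1-positive, 122.9 to 417 CPM in KLRG1-negative libraries), the 7 macrophage, neutrophil and mast cell markers (68.5 to 367 CPM in KLRG1-positive, 54.6 to 342 CPM in KLRG1-negative libraries) and the 5 epithelial and endothelial markers (107 to 499 against 116 to 645 CPM) overlapped between the groups. Single markers within them did not: Tbx21 and Eomes of the NK and ILC1 list were lower in every KLRG1-positive library, and Cpa3, a protease gene of mast cells and basophils, was higher in every one. Of these lists, Mcpt4 had no count in any library and Ly6g none in KLRG1-positive libraries. Past the threshold and lower in KLRG1-positive cells were the T cell marker Cd28 and the fibroblast markers Col1a1, Col1a2, Col3a1, Dcn and Lum. In bulk samples such as these, fewer cells of a type and less RNA per cell cannot be told apart. The part of other cells in the receptor differences below was not tested.

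Of the 10 genes, 5 lie beside each other on chromosome 1 (GRCm38), in a run of IL-1 family receptor genes on the plus strand that also holds Il1rl2, the IL-36 receptor chain. Il1r2 spans 40074079 to 40125231, Il1r1 40225080 to 40317257, Il1rl2 40324610 to 40367562, Il1rl1 40429570 to 40465415, Il18r1 40465552 to 40500854 and Il18rap 40515362 to 40551705. The run covers 478 kb. The other receptors lie on chromosomes 16 (Il1rap, 26581704 to 26730117), 14 (Il17rb, 29996135 to 30008896), 6 (Il17ra, 120463247 to 120487559), 5 (Crlf2, 109554709 to 109558993) and 15 (Il7r, 9506161 to 9529876).

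Start-site sequences are shown for the genes of this run whose differences, given below, were the largest and opposite in sign. They are RefSeq windows (GRCm38.p6) of 300 bases, from 250 before to 50 after each annotated start, written 5′ to 3′ on the gene's strand. Capitals mark the letters AGATAA or TGATAA on either strand, a motif of GATA factors.
Il1rl1 upstream start, chr1:40429320-40429619 (+ strand): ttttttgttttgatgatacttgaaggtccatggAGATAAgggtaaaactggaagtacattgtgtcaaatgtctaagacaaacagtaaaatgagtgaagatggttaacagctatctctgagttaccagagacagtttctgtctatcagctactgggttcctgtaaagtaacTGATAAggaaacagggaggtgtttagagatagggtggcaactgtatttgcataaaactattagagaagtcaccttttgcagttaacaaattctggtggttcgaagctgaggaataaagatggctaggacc
Il1rl1 downstream start, chr1:40439379-40439678 (+ strand): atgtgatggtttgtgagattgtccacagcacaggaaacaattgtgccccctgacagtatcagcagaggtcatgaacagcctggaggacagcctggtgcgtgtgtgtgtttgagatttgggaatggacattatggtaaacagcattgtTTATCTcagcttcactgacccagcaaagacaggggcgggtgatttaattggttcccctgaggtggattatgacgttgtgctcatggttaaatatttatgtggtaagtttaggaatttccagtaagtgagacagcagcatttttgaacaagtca
Il1r2 start, chr1:40085843-40086142 (+ strand): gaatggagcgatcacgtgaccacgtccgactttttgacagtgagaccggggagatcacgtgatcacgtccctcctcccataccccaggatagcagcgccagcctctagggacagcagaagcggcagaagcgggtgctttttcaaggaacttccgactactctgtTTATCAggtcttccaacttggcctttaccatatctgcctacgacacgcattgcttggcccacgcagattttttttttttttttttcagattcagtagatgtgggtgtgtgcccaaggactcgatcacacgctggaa
Il1r1 upstream start, chr1:40224830-40225129 (+ strand): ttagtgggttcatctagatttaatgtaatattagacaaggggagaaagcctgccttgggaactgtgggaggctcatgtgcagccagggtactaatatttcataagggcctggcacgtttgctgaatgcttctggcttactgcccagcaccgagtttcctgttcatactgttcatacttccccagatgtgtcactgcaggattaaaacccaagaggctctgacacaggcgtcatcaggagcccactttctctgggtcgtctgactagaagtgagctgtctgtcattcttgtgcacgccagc
Il1r1 downstream start, chr1:40266336-40266635 (+ strand): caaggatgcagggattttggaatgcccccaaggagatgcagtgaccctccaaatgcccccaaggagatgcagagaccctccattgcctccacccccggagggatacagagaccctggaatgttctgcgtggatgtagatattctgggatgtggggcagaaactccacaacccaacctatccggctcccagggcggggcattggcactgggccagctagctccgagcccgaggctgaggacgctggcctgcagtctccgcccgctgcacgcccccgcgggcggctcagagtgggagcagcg
Windows were listed for 9 of the 10 receptors, 13 in all and some of them overlapping. The GATA letters occurred in 4 of the 13, both windows of Il1rl1 and the windows of Il1r2 and Il18rap, beside 18.6% of 32817 RefSeq windows of the same length. The upstream window of Il1rl1 held 2 matches, and neither window of Il1r1 held one. TGANTCA, an AP-1 motif, occurred once, in the window of Il17rb (7.81% of windows hold it). TGTGGT, a RUNX motif, occurred in 5 of the 13 (16.8%), and a longer NF-kappaB motif in none (0.411%). These matches describe letters and not binding.

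After IL-33 treatment, the receptor genes for IL-33 and for the IL-1 decoy had higher mean levels in KLRG1-positive cells, and the signalling receptor for IL-1 had a lower one. Il1rl1 averaged 3.01 times its KLRG1-negative level, Il1r2 3.33 times and Il17rb 1.63 times, while Il1r1 averaged 0.0720 times and Il18r1 0.492 times. None of these differences passed the test over all genes. By edgeR's quasi-likelihood test, with p-values adjusted over 15197 tested genes and a threshold of 0.05, 0 of the 10 receptors were higher and 0 lower, where 0.125% of all tested genes were called higher and 1.21% lower (1.34% in all). At an unadjusted p under 0.05, 0 receptors were higher and 2 lower (Il1r1 and Il18r1), beside 4.19% and 11.5% of all tested genes. With DESeq2, 0 receptors were called higher and 1 lower, Il1r1, beside 2.29% and 9.11% of genes. Of the 10 receptors, 7 had a positive log2 fold change, beside 46.5% of tested genes, and their median was 0.27, against -0.05 over all tested genes. Only Il1rl1 had all KLRG1-positive libraries above all KLRG1-negative ones (9.46% of tested genes did), and Il1r1 and Il18r1 had them all below (15.2% did, and 24.6% were apart in either direction). Same-numbered libraries deviated together, and DESeq2 with the library number as a block (chosen after the data were seen) called 2 receptors higher, Il1rl1 (adjusted p = 0.00905) and Il1r2 (adjusted p = 0.00134), beside 4.01% of all genes. It called 2 lower, Il1r1 (adjusted p = 2.5e-05) and Il18r1 (adjusted p = 0.0248), beside 11.2% of genes, while edgeR with the same block called 0 in either direction.

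**Figure D1:**
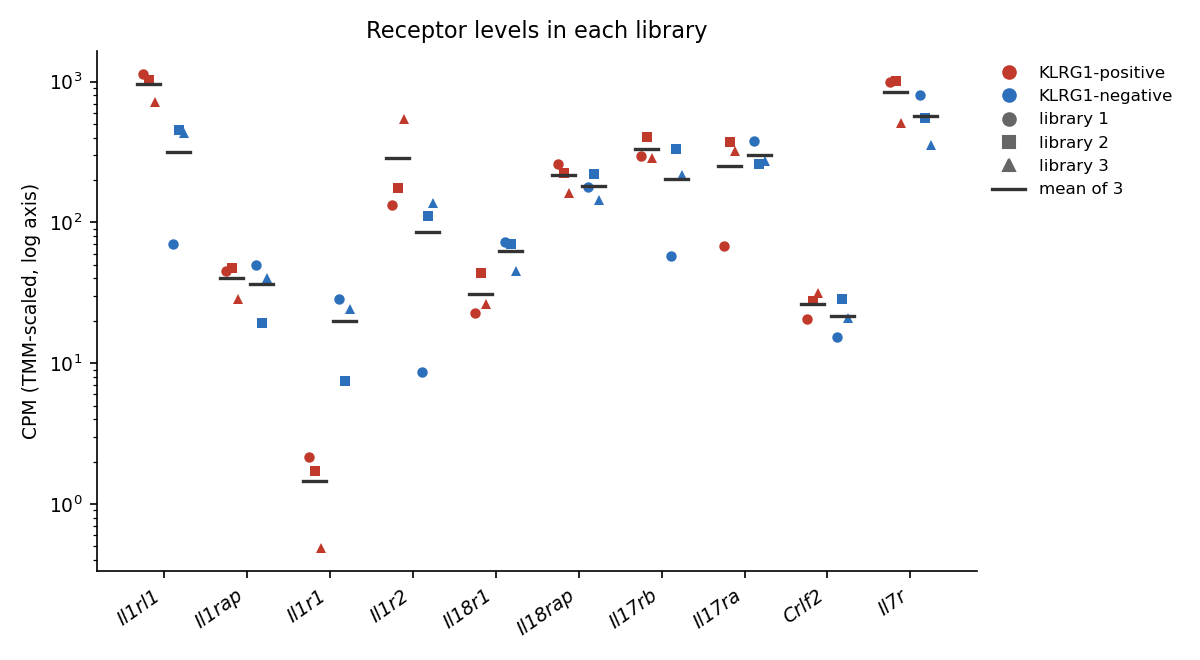
Level of each receptor gene in CPM on a log axis, with a point for each library (shape marks the library number), KLRG1-positive left of KLRG1-negative, and a bar at the mean of 3. The groups are separate for Il1rl1, Il1r1 and Il18r1 and overlap for the other 7 genes; KLRG1-negative library 1 is the lowest point of Il1rl1, Il1r2, Il17rb and Crlf2.

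Il1rl1, the IL-33 receptor chain, stood at 1127, 1026 and 723 CPM in KLRG1-positive libraries 1, 2 and 3 and at 69.8, 451 and 434 CPM in KLRG1-negative libraries 1, 2 and 3. All KLRG1-positive libraries lay above all KLRG1-negative ones, and KLRG1-negative library 1 was far below its group. Its log2 fold change was 1.59 ± 0.66 (SE, 3 libraries a group, n = 3; edgeR quasi-likelihood adjusted p = 0.324), and 1.12 without KLRG1-negative library 1 (adjusted p = 0.123). The gene gives rise to a membrane-bound receptor and to a soluble form, and counts per gene do not separate them. Mast cells and basophils also carry this receptor. Their marker Cpa3, named after its values were seen, stood at 90.6, 34.1 and 29.7 CPM in KLRG1-positive and at 12.5, 2.68 and 8.27 CPM in KLRG1-negative libraries (log2 fold change 2.72 ± 0.72, edgeR adjusted p = 0.13, DESeq2 adjusted p = 0.00225), while the mast cell marker Mcpt4 had no count. Its part in the difference was not tested. The co-receptor Il1rap stood at 45.1, 47.6 and 28.4 CPM in KLRG1-positive and at 49.8, 19.2 and 40.0 CPM in KLRG1-negative libraries. These ranges overlapped widely (log2 fold change 0.15 ± 0.41, adjusted p = 0.925), and without KLRG1-negative library 2 the sign turned (-0.050).

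Il1r1, the signalling receptor for IL-1, stood at 2.14, 1.71 and 0.488 CPM in KLRG1-positive and at 28.6, 7.45 and 24.2 CPM in KLRG1-negative libraries. The KLRG1-positive values rest on 38, 32 and 11 reads. Every KLRG1-positive library lay below every KLRG1-negative one, with a log2 fold change of -3.80 ± 0.81 (SE, n = 3 per group; edgeR quasi-likelihood adjusted p = 0.0796, DESeq2 adjusted p = 2.87e-05). Over the other settings tried, the adjusted p for this gene lay between 2.5e-05 and 0.386. Il1r1 is also made by fibroblasts and some T cells and ILC3, whose summed markers were all higher in the KLRG1-negative libraries, fibroblast markers at 3849, 6640 and 10773 CPM and T cell markers at 4002, 1684 and 1009 CPM in libraries 1, 2 and 3. KLRG1-negative library 2, the lowest of its group in Il1r1, was the middle one in both sums and the lowest in ILC3 markers (31.7 CPM). The part of fibroblasts, T cells and ILC3 in the level of Il1r1 was not tested, and 3 bulk libraries cannot tell them apart.

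Il1r2, the IL-1 decoy receptor, stood at 133, 177 and 547 CPM in KLRG1-positive and at 8.62, 110.5 and 138 CPM in KLRG1-negative libraries. KLRG1-positive library 3 was the highest of all and KLRG1-negative library 1 the lowest, and library 1 of the KLRG1-positive group lay just under the highest KLRG1-negative value, so the groups overlapped. This gave a log2 fold change of 1.73 ± 1.01 (SE, n = 3 in each group; edgeR quasi-likelihood adjusted p = 0.503), and 0.99 without KLRG1-positive library 3 (adjusted p = 0.862). Cpa3, whose values stand beside Il1rl1, was also higher in every KLRG1-positive library, with library 1 the highest where Il1r2 had library 3. The part of mast cells, basophils or other cells in the Il1r2 difference was not tested. Il1r1 and Il1r2 thus had fold changes of opposite sign. Per kilobase of exon, the decoy exceeded the signalling receptor 207-, 345- and 3738-fold in KLRG1-positive libraries, the last of these on 11 reads of Il1r1, and 1.00-, 49.4- and 19.1-fold in KLRG1-negative libraries. The ratio was higher in all 3 KLRG1-positive libraries, with an exact two-sided permutation p of 0.1, the smallest that 3 against 3 libraries allow (0.25 after Benjamini-Hochberg adjustment over 5 subunit ratios).

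**Figure D2:**
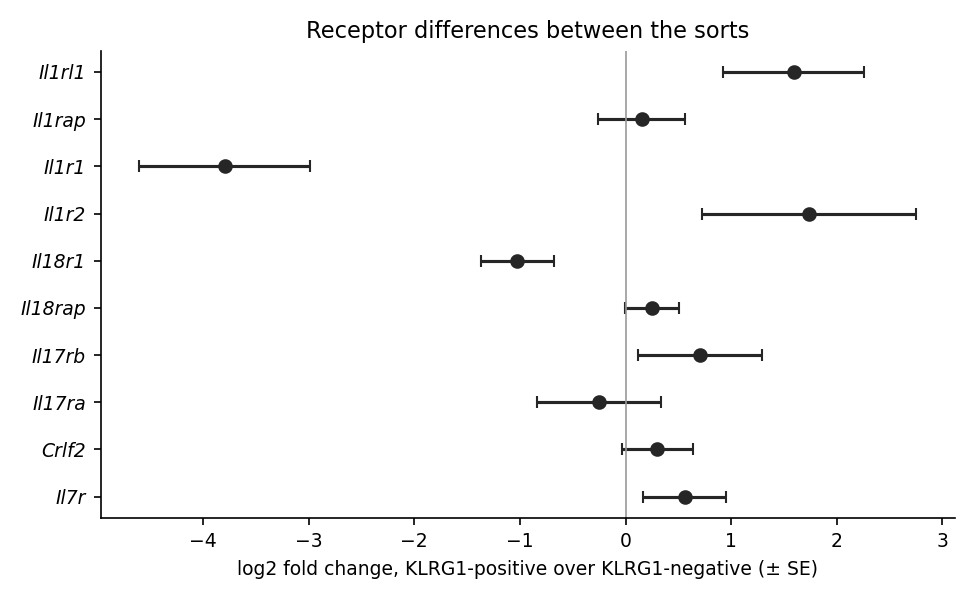
Log2 fold change of each receptor gene, KLRG1-positive over KLRG1-negative, from the edgeR quasi-likelihood fit over all 6 libraries; points are estimates and bars are ± SE. Il1rl1 (1.59) and Il1r2 (1.73) lie right of 0, Il1r1 (-3.80) and Il18r1 (-1.02) left of it, and the bars of Il1rap, Il17ra, Crlf2 and Il18rap cross 0.

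For IL-18, the ligand-binding chain was lower on average in KLRG1-positive cells and its partner was not. Il18r1, which binds IL-18, stood at 22.6, 43.8 and 26.2 CPM in KLRG1-positive and at 72.7, 70.5 and 45.1 CPM in KLRG1-negative libraries. The groups did not overlap, although KLRG1-positive library 2 came close to KLRG1-negative library 3 (log2 fold change -1.02 ± 0.35 SE, n = 3 per group; edgeR quasi-likelihood adjusted p = 0.223, DESeq2 adjusted p = 0.091). Il18rap, the chain that completes the signalling receptor, stood at 261, 225 and 163 CPM in KLRG1-positive and at 180, 222 and 144 CPM in KLRG1-negative libraries. Its groups overlapped (0.25 ± 0.25, adjusted p = 0.75). Per kilobase of exon, Il18rap exceeded Il18r1 8.24-, 3.66- and 4.43-fold in KLRG1-positive and 1.77-, 2.24- and 2.28-fold in KLRG1-negative libraries. The ratio was higher in every KLRG1-positive library (exact two-sided permutation p = 0.1, adjusted 0.25). IL-18 receptor chains are also expressed by NK and T cells. The summed T cell markers were more abundant in the KLRG1-negative libraries (Cd28 at 16.5 ± 5.87 CPM in KLRG1-positive libraries, against 196 ± 102 CPM in KLRG1-negative ones, SD, n = 3 each). So were the NK and ILC1 markers Tbx21 (9.77 ± 5.29 against 86.2 ± 40.6 CPM) and Eomes (0.660 ± 0.397 against 24.8 ± 21.3 CPM), both named after their values were seen. The other 4 of these 6 markers overlapped between the groups. Of them Ncr1, Klrb1c and Prf1 averaged lower in KLRG1-positive libraries, and Gzma averaged higher (75.0 ± 51.6 against 54.1 ± 13.4 CPM). The part of NK and T cells in the levels of the IL-18 receptor chains was not tested.

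Il17rb, the chain that binds IL-25, stood at 297, 406 and 288 CPM in KLRG1-positive and at 58.2, 334 and 216 CPM in KLRG1-negative libraries. KLRG1-negative library 1 was low, and library 2 lay within the KLRG1-positive range, so the groups overlapped. This gave a log2 fold change of 0.70 ± 0.58 (SE, n = 3 in each group; edgeR quasi-likelihood adjusted p = 0.67). The value was 0.27 without KLRG1-negative library 1 and 1.41 without KLRG1-negative library 2 (edgeR adjusted p = 0.751 and 0.295). The gene overlaps Actr8 on the opposite strand, and since reads were counted without strand and reads shared by both genes were left out, its level is uncertain. Its partner Il17ra, which also serves the IL-17A receptor, stood at 68.5, 370.5 and 321 CPM in KLRG1-positive and at 377, 259 and 271 CPM in KLRG1-negative libraries. KLRG1-positive library 1 alone was low, at less than any other library, and the sign of the difference rested on it: the log2 fold change was -0.25 ± 0.59 (adjusted p = 0.91) with all libraries and 0.21 without it. The same library was also the lowest in Irak1, a kinase of IL-1 family signalling named after its values were seen (31.1, 291 and 241 CPM in KLRG1-positive libraries and 96.8, 258 and 215 CPM in KLRG1-negative libraries). The ratio of Il17rb to Il17ra per kilobase ranged from 2.10 to 10.1 in KLRG1-positive and from 0.361 to 3.01 in KLRG1-negative libraries, overlapping (exact two-sided permutation p = 0.4, adjusted 0.5).

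Neither chain of the TSLP receptor passed the test. Crlf2, the TSLP-binding chain, stood at 20.6, 27.6 and 31.5 CPM in KLRG1-positive and at 15.4, 28.4 and 20.8 CPM in KLRG1-negative libraries (log2 fold change 0.30 ± 0.34 SE, n = 3 per group; edgeR quasi-likelihood adjusted p = 0.775). Il7r stood at 1001, 1015 and 507 CPM in KLRG1-positive and at 803, 549 and 357 CPM in KLRG1-negative libraries (0.56 ± 0.39, adjusted p = 0.598). Both genes overlapped between the groups, and library 3 was the lowest for Il7r in each. Within each library number Il7r was higher in the KLRG1-positive library. With the number as a block, its adjusted p was 0.19 by edgeR's quasi-likelihood test. It was 0.0698 by DESeq2 with that block, a fit chosen after the data were seen. Among the KLRG1-negative libraries Il7r was highest in library 1, as were Il1rap, Il17ra, Il18r1 and Il1r1. Il1rl1, Il1r2, Il17rb and Crlf2 were lowest there. T cells also carry Il7r, and their summed markers were highest in that library (4002 CPM). The part of T cells in the level of Il7r was not tested. Per kilobase, Crlf2 amounted to 0.0442, 0.0583 and 0.133 of Il7r in KLRG1-positive and 0.0412, 0.111 and 0.125 of it in KLRG1-negative libraries, ranges that overlapped (exact two-sided permutation p = 1.0).

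Levels of different genes were compared per kilobase of exon. In KLRG1-positive cells the order ran from Il7r (262 ± 90.2 CPM per kilobase, SD, n = 3) through Il1r2 (150 ± 119), Il1rl1 (139 ± 30.5) and Il17rb (89.2 ± 17.7) to Il18rap (32.0 ± 7.37), Il17ra (29.3 ± 18.7), Crlf2 (17.8 ± 3.69), Il18r1 (6.41 ± 2.36), Il1rap (3.55 ± 0.918) and Il1r1 (0.227 ± 0.135). Neighbours whose ranges overlapped were Il7r with Il1r2, Il1r2 with Il1rl1, Il1rl1 with Il17rb, Il18rap with Il17ra, and Il17ra with Crlf2. In KLRG1-negative cells Il7r was again first (178 ± 69.8), followed by Il17rb (54.7 ± 37.3), Il1rl1 (46.2 ± 31.2), Il1r2 (45.0 ± 35.8), Il17ra (34.9 ± 7.45), Il18rap (26.9 ± 5.76), Crlf2 (14.4 ± 4.37), Il18r1 (13.0 ± 3.18), Il1rap (3.20 ± 1.38) and Il1r1 (3.16 ± 1.76). There the ranges of Il7r and Il17rb were apart, as were those of Il18rap and Crlf2 and of Il18r1 and Il1rap, and all other neighbours overlapped. The co-receptor Il1rap was thus low in both groups. Per kilobase, Il1rl1 exceeded it 41.2-, 35.5- and 41.9-fold in KLRG1-positive libraries and 2.31-, 38.7- and 17.9-fold in KLRG1-negative libraries (exact two-sided permutation p = 0.2, adjusted 0.333).

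**Figure D3:**
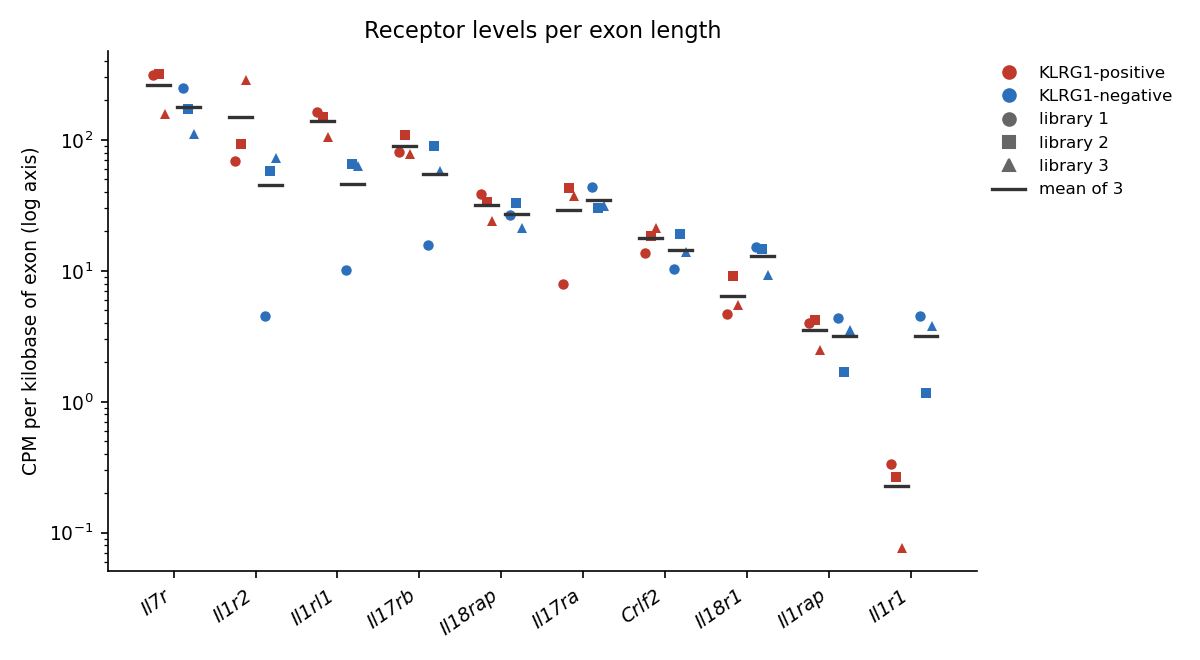
Receptor levels in CPM per kilobase of exon on a log axis, genes ordered by their KLRG1-positive mean, with a point for each library, KLRG1-positive left of KLRG1-negative, and a bar at the mean of 3. Il7r has the highest mean in both groups, and Il1rap and Il1r1 have the lowest. In KLRG1-positive library 3, Il1r2 (287 CPM per kilobase) lies above Il7r (158 CPM per kilobase).

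Because the libraries differed in ILC2 transcripts, each receptor was also expressed as a ratio to Gata3, the transcription factor that defines ILC2, within the same library. Gata3 itself averaged 967 ± 146 CPM in KLRG1-positive libraries and 355 ± 181 CPM in KLRG1-negative libraries (SD, n = 3 each), a mean log2 difference of 1.59. Division by it lowers every gene alike, and a gene with equal CPM in both groups reads -1.59 on this scale. Relative to Gata3, Il1rl1 stood at 1.14, 0.932 and 0.891 times Gata3 in KLRG1-positive libraries and at 0.413, 0.851 and 1.19 times in KLRG1-negative libraries. The groups overlapped, and the sign of the mean log2 difference (0.39, exact two-sided permutation p = 0.5) turned without KLRG1-negative library 1 (-0.036). Il17rb stood at 0.3002, 0.369 and 0.355 times Gata3 in KLRG1-positive and at 0.344, 0.630 and 0.593 times in KLRG1-negative libraries, with a mean log2 difference of -0.57 (p = 0.3 by exact permutation), above the value of a gene with equal CPM. Il1r2 overlapped too, at 0.134, 0.161 and 0.675 against 0.0510, 0.208 and 0.380 times Gata3, with a mean log2 difference of 0.62 (p = 0.6 by exact permutation) that turned to -0.12 without KLRG1-positive library 3 and to -0.20 without KLRG1-negative library 1.

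For 5 receptors every KLRG1-positive library lay below every KLRG1-negative one relative to Gata3, and for 0 every one lay above. Of all tested genes 60.4% lay below and 0.368% above in the same way, so the count of 5 in 10 is near the background. Each of the 5 had p = 0.1 by exact two-sided permutation, the smallest possible, and 0.2 after Benjamini-Hochberg adjustment over the 10 receptors. Il1r1 (mean log2 difference -5.42), Il18r1 (-2.64) and Il17ra (-2.15) lay below the -1.59 of a gene with equal CPM, and Il18rap (-1.34) and Crlf2 (-1.26) above it. Il1rap (-1.36) and Il7r (-1.02) overlapped between the groups.

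Single libraries moved several of these values. With a library left out, Il1r1 ranged from -6.39 to -4.59 relative to Gata3, the first without KLRG1-negative library 2 and the second without KLRG1-negative library 1. Il17ra ranged from -2.62 to -1.35, the second of these without KLRG1-positive library 1, and was -1.52 without KLRG1-negative library 1. Il1rap was -0.62 without KLRG1-negative library 1 and -2.13 without KLRG1-negative library 2, and Il7r was -0.27 without KLRG1-negative library 1. Gata3 itself stood at 169, 530 and 365 CPM in KLRG1-negative libraries 1, 2 and 3. The -1.59 of a gene with equal CPM therefore also shifts when a library is left out. These values cannot be set against it, and part of each shift comes from Gata3. Relative to Rora, another transcription factor of ILC2, the 10 receptors had the same signs as relative to Gata3, but Il1r1 and Il18r1 were the only 2 that stayed separate, beside 35.2% of all tested genes lower and 0.638% higher. Il17ra, Crlf2 and Il18rap overlapped there (exact two-sided permutation p = 0.2 each). Gata3 is also expressed by T cells at lower levels, so the ratio is not a count per ILC2.

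**Figure D4:**
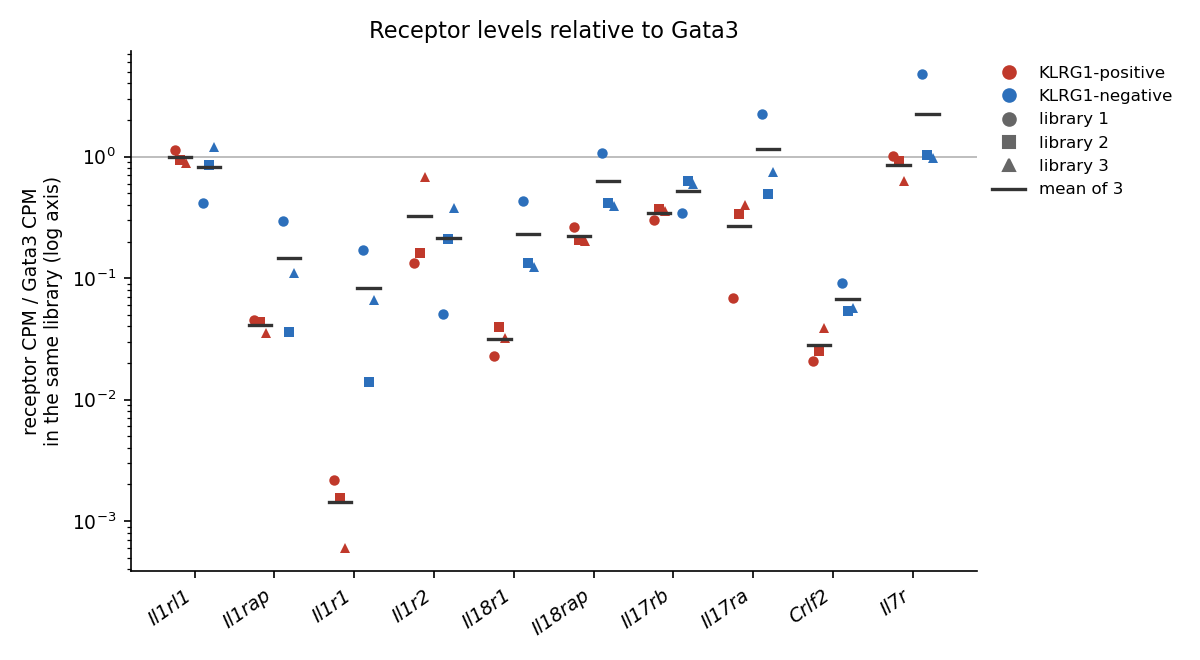
CPM of each receptor divided by CPM of Gata3 in the same library, on a log axis, with a point for each library, KLRG1-positive left of KLRG1-negative, and a bar at the mean of 3; the grey line marks a ratio of 1. Il1rl1, Il1r2 and Il17rb overlap between the groups, while Il1r1, Il18r1, Il17ra, Il18rap and Crlf2 lie lower in every KLRG1-positive library, as do 60.4% of all tested genes.

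Along the run of receptor genes on chromosome 1 the signs of the difference were mixed. Il1r2 had a log2 fold change of 1.73, Il1r1 -3.80, Il1rl2 -0.52 ± 0.65 (adjusted p = 0.805, edgeR quasi-likelihood), Il1rl1 1.59, Il18r1 -1.02 and Il18rap 0.25. Il1rl1 and Il18r1, which had opposite signs, are separated by 136 bases.

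**Figure D5:**
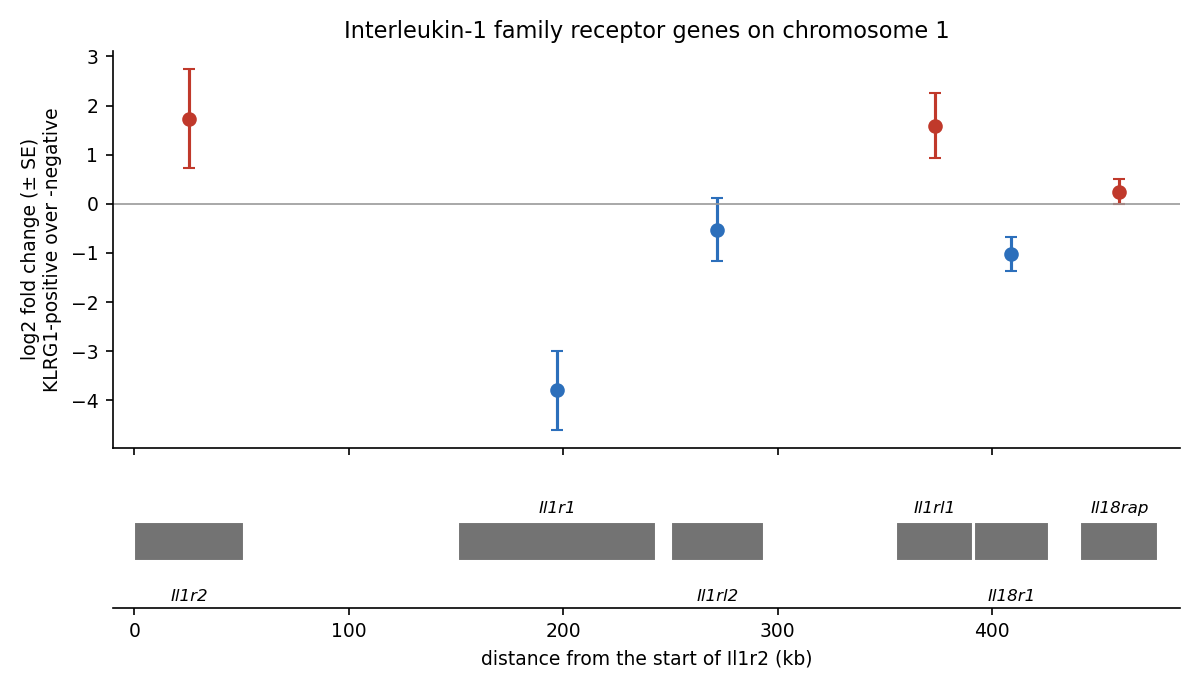
Map of the chromosome 1 receptor genes as grey boxes by distance in kb from the start of Il1r2 (bottom), and their log2 fold change, KLRG1-positive over KLRG1-negative, with ± SE (top; red above 0, blue below 0). Il1r2 and Il1rl1 lie above 0, while Il1r1, between them, is the lowest at -3.80.

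Profiles across the 6 libraries were compared by the root mean square difference of mean-centred log2 CPM, over 9123 protein-coding genes with a mean of at least 10 CPM. The genes nearest to Il1rl1 were Tuba8 (0.21), Ptpn13 (0.28), Naip5 (0.30), Nmur1 (0.32) and Pdcd1lg2 (0.35). Nmur1 is the neuromedin U receptor of ILC2 and Pdcd1lg2 the PD-1 ligand PD-L2. None of these 5 genes passed the test. The genes nearest to Il17rb were Ypel2 (0.10), D630039A03Rik (0.15), Dst (0.15), Lilrb4a (0.18) and Tmem51 (0.21). Those nearest to Il18r1 were the survival gene Bcl2 (0.10), Qtrt2 (0.14), Rnf213 (0.15), Uvssa (0.16) and Mgst2 (0.16). Naip5 and Lilrb4a have close paralogs, so their counts are uncertain.

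Receptor subunits that work together were not each other's nearest profiles. Among the 10 receptors Il1rl1 was nearest to Il17rb (0.57, with 53 of 9122 other genes nearer to Il1rl1) and next to Il1r2 (0.92). Its distance to its own co-receptor Il1rap was 1.498, with 5847 genes nearer. Il17rb and Il17ra stood at 1.41, Il18r1 and Il18rap at 0.75, and Crlf2 and Il7r at 0.71. Il7r was nearest to Il18rap (0.36), and Il1r1 and Il1r2 were the farthest apart of all pairs (3.67).

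Other genes of the families were read from a list of 9 further receptors and decoys, of which 6 had enough counts. By edgeR's quasi-likelihood test 0 passed in either direction, beside 1.34% of all tested genes. An unadjusted p under 0.05 was reached by 0 in the higher and 3 in the lower direction, beside 4.19% and 11.5% of all tested genes. DESeq2 called the same 3 lower, beside 9.11% of genes. The median log2 fold change was -1.46, against -0.05 over all tested genes. The 3 were Il17rc (0.304 ± 0.273 CPM in KLRG1-positive libraries and 13.5 ± 9.61 CPM in KLRG1-negative libraries, SD, n = 3 each), Il17re (1.28 ± 0.876 against 19.5 ± 17.3 CPM) and Il18bp, the secreted IL-18 inhibitor (1.96 ± 0.364 against 10.3 ± 3.66 CPM), the last named after its values were seen. Il17rc and Il17re partner Il17ra for IL-17A and IL-17C. Their log2 fold changes were -5.46 ± 0.97 and -3.93 ± 1.03 (edgeR adjusted p = 0.0593 and 0.126). The summed fibroblast, T cell and ILC3 markers were also higher in the KLRG1-negative libraries. The part of these cells in the levels of Il17rc and Il17re was not tested. Sigirr, an inhibitory member of the IL-1 receptor family, averaged 288 ± 58.3 CPM in KLRG1-positive libraries and 191 ± 66.9 CPM in KLRG1-negative libraries (0.59 ± 0.30, adjusted p = 0.435), and Il17rd stayed under 2 CPM throughout (0.41 ± 1.87, adjusted p = 0.963).

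Of the 9 ligands, 6 were tested and all 6 had negative log2 fold changes (median -2.36), beside 53.5% of all tested genes. None passed (edgeR quasi-likelihood). Unadjusted p-values under 0.05 numbered 0 higher and 3 lower, beside 4.19% and 11.5% of all tested genes. With DESeq2 3 were lower, beside 9.11% of genes. Il33 stood at 3.38, 0.107 and 0.0444 CPM in KLRG1-positive and at 38.1, 103 and 131 CPM in KLRG1-negative libraries, where fibroblast markers were also high (-6.28 ± 1.58, adjusted p = 0.115). The part of fibroblasts in the level of Il33, 1 of these 3 ligands, was not tested. Il17f (0.0682 ± 0.0827 against 2.01 ± 0.706 CPM, log2 fold change -4.76) and Il18 (1.59 ± 0.522 against 11.3 ± 11.3 CPM, log2 fold change -2.82) were the others, Il18 being named after its values were seen. Il25 had no count in any library, where 3 counts over a group would be 0.0508 CPM for KLRG1-positive and 0.0468 CPM for KLRG1-negative cells. Tslp did not exceed 0.556 CPM.

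The 18 adaptors, kinases and shared chains that act below these receptors were all tested. Of them 12 had positive log2 fold changes (median 0.39), beside 46.5% of all tested genes. By edgeR's quasi-likelihood test 0 passed. With p left unadjusted (under 0.05) 4 were higher and 0 lower, beside 4.19% and 11.5% of all tested genes. With DESeq2 3 were higher, beside 2.29% of genes. The largest differences were those of Irak3, an inhibitor of IL-1 family signalling, at 155, 107 and 99.0 CPM in KLRG1-positive libraries and 43.5, 43.4 and 77.0 CPM in KLRG1-negative libraries (1.14 ± 0.32, edgeR adjusted p = 0.152), and of Tab2, a TAK1-binding adaptor, at 60.0 ± 13.9 against 31.1 ± 2.84 CPM (0.95 ± 0.25, adjusted p = 0.123). Il2rg, the common gamma chain that joins Il7r in the IL-7 receptor, averaged 1272 ± 153 CPM in KLRG1-positive libraries and 754 ± 132 CPM in KLRG1-negative libraries (0.75 ± 0.20, adjusted p = 0.123), and with Jak3 it was among the 4; both were named after their values were seen. The largest negative values were those of Tab3 (-0.41 ± 0.58, adjusted p = 0.833) and Jak1 (-0.40 ± 0.28, adjusted p = 0.596).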

How the data were processed

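Per the file headers, the authors ran featureCounts 1.5.2 and deposited unnormalised gene counts on Ensembl release 90 gene models of mouse build GRCm38, without strand and without multi-mapping or ambiguous reads. A second deposited table holds counts of alignments per assignment status, per the file headers. The submitters' processing notes also name bcl2fastq and STAR 2.4.1d. Multi-mapping alignments were 26.3 to 32.3% of a library, so genes with close copies are understated. Exon length, the deposited table's other column, was used only for levels per kilobase. Per the labels' protocols, a SMARTer kit amplified the cDNA and Nextera XT, which does not mark strand, was used for the libraries. Reads without molecular identifiers are not independent molecules, so floors cover counting error only.

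Symbols came from GENCODE M21 (52489 of 52636 identifiers found). Counts were fitted on the whole table with edgeR 4.0.16 in R 4.3.3 (TMM, filterByExpr, robust quasi-likelihood F test, Benjamini-Hochberg over 15197 genes, threshold 0.05) with group as the only term; SE derives from the F statistic. DESeq2 1.42.0 was an alternative. Ratios within libraries were tested by exact permutation over libraries. Profiles used log2 CPM with 0.5 counts added. The fits were tested on simulated data with a smaller spread between libraries than here and without pairs. That test cannot show how many true differences the fits miss in these libraries. The members and lists were chosen with earlier results of these data known, so no result here is independent of that choice.

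Named genes were the 10 receptors, and in each further list those past the threshold and the 2 largest positive and negative log2 fold changes. For the cell type lists those past the threshold and the summed levels are given, with Gata3 and Rora as references for ratios. Other single markers of the cell type lists were named after their values were seen, except Nmur1, which was among the nearest profiles. The 5 nearest profiles were named for Il1rl1, Il17rb and Il18r1.

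Departures from the group mean correlated across genes, between libraries sharing a number, at 0.34, 0.28 and 0.16 for numbers 1, 2 and 3. Of the libraries, 6 of 6 correlated best with their own number. These 6 matches are not independent, because the departures within a group were taken from that group's own mean. Libraries sharing a number were treated as pairs in the fits with a replicate block and in the permutation within pairs. The main edgeR fit and the permutation p-values printed beside the ratios did not pair them. The pairing comes from the data and not from the labels.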

Additional observations from a re-analysis of the deposited data

How the results depend on the processing

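The number of receptors called was 0 higher and 0 lower with DESeq2 size factors in edgeR, library size only, either other filter, no robust estimation, the replicate block, and each library left out in turn (0 to 0 for both counts). DESeq2 called 1 lower, Il1r1. DESeq2 with the replicate block, added after seeing the data, called 2 higher (Il1rl1 and Il1r2) and 2 lower (Il1r1 and Il18r1), beside 4.01% and 11.2% of all genes. The cause was not tested. In edgeR the replicate block gave log2 fold changes of 1.90 for Il1rl1 (adjusted p = 0.3) and -3.78 for Il1r1 (adjusted p = 0.147) and changed no receptor's call. It moved the calls over all genes to 0 higher and 53 lower, against 19 and 184. Those calls numbered 346 and 1377 with DESeq2, 609 and 1697 with DESeq2 and the block, 37 and 282 with no filter, and 0 to 5 and 0 to 159 with a library left out.

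The log2 fold changes kept their sign in 166 of 170 refits of single receptors. The exceptions were Il17ra, which ranged from -0.62 to 0.21 with a library left out and was 0.39 without both libraries numbered 1, and Il1rap, which ranged from -0.050 to 0.47 and was -0.19 without both libraries numbered 2 (both added). Relative to Gata3, Il1rl1 ranged from -0.036 to 0.73 and Il1r2 from -0.20 to 1.24 on the log2 scale, and Crlf2 to Il7r from -0.75 to 0.086. The cause was not tested. Permutation within same-numbered pairs, where 3 pairs cannot reach the threshold, gave no call on a ratio. With 3 libraries per group, p-values of ratios could not fall below 0.1.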
